A study of Mus musculus with 4 samples.

Results

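The genes described here encode 10 transcription factors of the AP-1 family, Fos, Fosb, Fosl2, Jun, Junb, Jund, Batf, Batf3, Atf3 and Maff, out of 13792 genes with a value in each RNA library. They were picked by name, with earlier results of these libraries known, including lower values of several of them with Ascl2. Their values and ratios are therefore a description and carry no test. All 10 were found under these symbols, and the Ensembl identifier of each paired with the same symbol in the reference table.

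AP-1 is a dimer of basic leucine zipper (bZIP) proteins. A Jun protein pairs with itself or with a Fos protein and binds DNA at short palindromic sites, while Batf proteins pair with Jun proteins and, in lymphocytes, bind composite sites with Irf4 or Irf8. Many of the genes are immediate early genes, switched on by mitogen-activated protein (MAP) kinases soon after a cell is stimulated. In B cells they follow engagement of the antigen receptor and of CD40, and Batf is known to be needed for class switching of antibodies.

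The first library came from B cells infected with the retrovirus RVKM-Ascl2, which carries the basic helix-loop-helix factor gene Ascl2, and the other from B cells infected with RVKM-Empty, the same vector without the insert. The cells of both started as naive B cells from the inbred mouse strain C57BL/6 and were activated in culture by anti-IgM and anti-CD40, which mimic antigen and T cell help. The sources used here do not give age, time in culture, the number of mice or any sorting of infected cells. There was 1 library per group, so no value has a replicate error and no difference has a replicate check. An Ascl2 immunoprecipitation and an input of chromatin from germinal centre B cells also belong to the series, and neither was analysed here.

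The values, as deposited, appear to be abundances per gene and summed to 763932 in the RVKM-Ascl2 library and 750692 in the RVKM-Empty library. Their unit is not named and no read depth is known, which leaves no basis for a counting interval, and comparisons of level between genes hold only if the values are scaled for gene length. Ascl2 itself was 29.4 in the RVKM-Ascl2 library and 0.0809 in the RVKM-Empty library, in the direction of the labels. All 9 B cell markers were measured, among them the antigen receptor gene Cd79a at 492 with RVKM-Ascl2 and 665 with RVKM-Empty. Among markers of other cells, 6 of 10 myeloid genes had values, which summed to 41.3 with RVKM-Ascl2 and 40.4 with RVKM-Empty. Of 10 T cell markers 3 had values, Thy1 at 346 with RVKM-Ascl2 and 395 with RVKM-Empty, and Lat and Zap70 under 1.5 in both libraries, while none of the Cd3 genes had a value analysed here. The NK, mast cell, erythroid and stromal lists summed to between 1.55 and 20.5 with RVKM-Ascl2 and between 1.01 and 16.3 with RVKM-Empty. The part that other cells play in the differences below was not tested. In bulk RNA, fewer expressing cells and less RNA per cell cannot be told apart.

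The members lie on 7 chromosomes. The promoter sequences of 5 of them are shown, from Jund and Junb, the lowest, to Atf3, which barely differed. Each is the RefSeq window from 250 bases before to 50 bases after the gene's start (GRCm38.p6, the assembly called mm10), written 5′ to 3′ on the gene's strand. Capitals mark 2 motifs, CAGCTG, an E-box of the kind that Ascl factors are known to bind, and TGACGT or its reverse complement ACGTCA, the core of the cyclic AMP response element. Every printed window holds a marked motif, while those of Fosb, Fosl2, Batf3 and Jun, not printed, hold neither. Fosb and Maff also lie near the ends of the range of differences but are not printed. The windows are chr8:70697489-70697788 (plus strand) for Jund, chr8:84978699-84978998 (minus strand) for Junb, chr12:85686470-85686769 (plus strand) for Batf, chr12:85473640-85473939 (plus strand) for Fos and chr1:191183284-191183583 (minus strand) for Atf3.
Jund: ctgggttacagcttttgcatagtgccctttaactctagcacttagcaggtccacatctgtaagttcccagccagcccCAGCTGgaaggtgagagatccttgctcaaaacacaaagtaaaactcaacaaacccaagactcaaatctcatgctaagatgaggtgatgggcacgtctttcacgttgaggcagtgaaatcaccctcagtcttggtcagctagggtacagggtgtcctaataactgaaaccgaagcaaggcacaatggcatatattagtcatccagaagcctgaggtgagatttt
Junb: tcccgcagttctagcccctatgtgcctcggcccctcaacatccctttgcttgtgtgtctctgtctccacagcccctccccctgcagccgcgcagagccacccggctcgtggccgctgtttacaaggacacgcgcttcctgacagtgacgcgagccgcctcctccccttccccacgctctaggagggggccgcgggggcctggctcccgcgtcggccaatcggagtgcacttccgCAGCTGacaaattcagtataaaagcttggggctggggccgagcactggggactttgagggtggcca
Batf: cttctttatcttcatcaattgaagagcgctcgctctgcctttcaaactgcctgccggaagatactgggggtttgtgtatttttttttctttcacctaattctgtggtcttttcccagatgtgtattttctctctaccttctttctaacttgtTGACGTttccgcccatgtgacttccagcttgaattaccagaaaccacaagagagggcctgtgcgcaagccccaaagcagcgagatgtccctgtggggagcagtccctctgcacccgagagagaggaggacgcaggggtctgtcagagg
Fos: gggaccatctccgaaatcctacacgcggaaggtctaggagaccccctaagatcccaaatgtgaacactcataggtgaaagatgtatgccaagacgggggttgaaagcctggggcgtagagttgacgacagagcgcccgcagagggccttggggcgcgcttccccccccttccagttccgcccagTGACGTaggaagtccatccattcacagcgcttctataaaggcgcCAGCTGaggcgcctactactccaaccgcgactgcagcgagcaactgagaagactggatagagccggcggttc
Atf3: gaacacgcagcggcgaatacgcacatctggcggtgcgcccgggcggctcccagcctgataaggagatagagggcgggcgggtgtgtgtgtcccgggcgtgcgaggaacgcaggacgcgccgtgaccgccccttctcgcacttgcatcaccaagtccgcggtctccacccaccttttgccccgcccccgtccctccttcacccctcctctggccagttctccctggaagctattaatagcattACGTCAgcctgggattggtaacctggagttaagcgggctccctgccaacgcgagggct

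CAGCTG, which is its own reverse complement, lay in the windows of 3 of the 10 genes, Jund, Junb and Fos. Counted by window, as Maff has 3, the members have 12 windows, of which 3 hold CAGCTG. Among all 32817 RefSeq windows of this length 16.3% hold it. The first base of CAGCTG lay 173 bases before the start of Jund, 16 before that of Junb and 22 before that of Fos. The Jund window is 46.7% G and C, beside 65.3% for Junb, 58.7% for Fos and a median of 52.7% over all windows. If these cells start Jund elsewhere, its distance does not hold. TGACGT, searched on both strands, lay in windows of Atf3, Batf, Fos and Maff. That is 4 of the 12 member windows, beside 7.51% of all windows. The full element TGACGTCA, which contains it, was found in a window of Maff and in 1.79% of all windows. TGACATCA, a variant known from the Jun promoter, lay 45 bases before the start of Jun and of 1 of the 3 Maff windows, and in 3.62% of all windows. The AP-1 site itself (TGACTCA, both strands) was in no member's window and in 5.2% of all windows, and the CArG box, which binds serum response factor, in no member's window and in 1.63% of all. These are matches of letters only, beside RefSeq's start of each gene, and which start these cells use was not tested. Bases more than 250 before the start were not searched, so a motif absent from a window may lie further upstream. The windows of Fosb, Fosl2 and Batf3 held none of the motifs searched.

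As a family the AP-1 genes took a smaller share of the RVKM-Ascl2 library. Their values summed to 456 with RVKM-Ascl2 and 829 with RVKM-Empty, or 0.0596% and 0.110% of the library. Of the 10, 8 had a log2 ratio below 0, taken as log2 of the RVKM-Ascl2 value plus 1 over the RVKM-Empty value plus 1. Of the 12283 genes that reached a value of 1 in either library, 51.6% were below 0. The median over the members was −0.38, beside −0.01 over all of these genes. Because the members were chosen with these values in view, nothing is read from the comparison with the background. The Jun subfamily accounted for 76.8% of the difference between the sums, and Jund, Junb and Batf together for 92.6%.

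**Figure D1:**
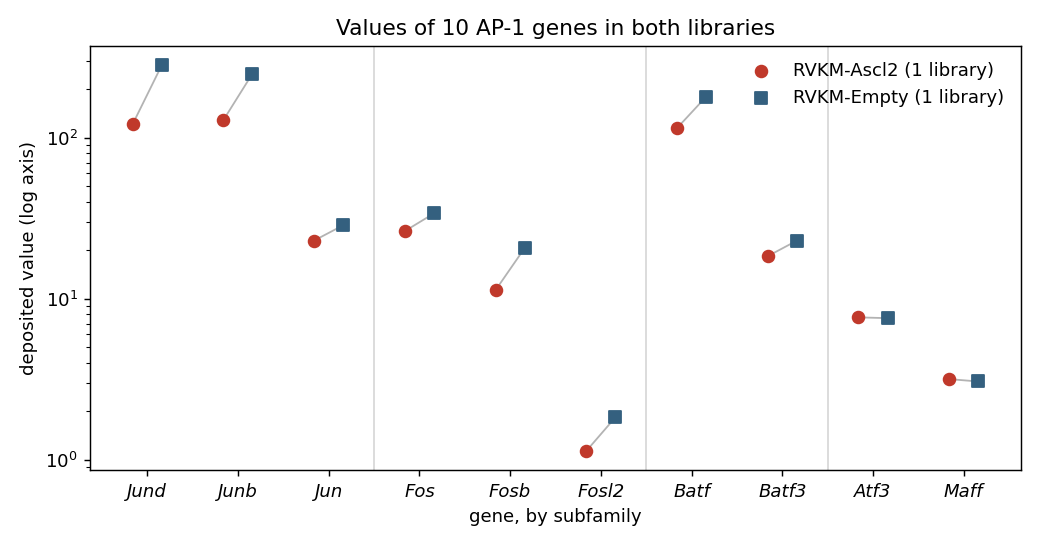
Deposited values (log axis) of the 10 AP-1 genes, grouped by subfamily, in the RVKM-Ascl2 library (circles, left) and the RVKM-Empty library (squares, right), with 1 library per group and no error bars. In 8 genes the circle lies below the square, with the widest gap in Jund (121 and 281), while Atf3 and Maff lie level.

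The Jun subfamily, whose proteins form the core of most AP-1 dimers, differed most in its JunD and JunB members. Jund (ENSMUSG00000071076, chromosome 8, 70697739 to 70700616), known for broad expression and for restraint of growth in fibroblasts, was 121 in the RVKM-Ascl2 library and 281 in the RVKM-Empty library. Its log2 ratio was −1.21, the only member at least 2-fold lower. Over all 12283 genes, 0.716% were at least 2-fold lower.

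Junb (ENSMUSG00000052837, chromosome 8, 84976909 to 84978748), an immediate early gene whose protein can oppose c-Jun, was 129 with RVKM-Ascl2 and 249.7 with RVKM-Empty. At −0.95 its log2 ratio lay just short of 2-fold. Jun (ENSMUSG00000052684, chromosome 4, 95049036 to 95052222), the founding member of the family and a target of the JNK kinases, was 23.0 with RVKM-Ascl2 and 28.6 with RVKM-Empty, a log2 ratio of −0.30. Every gene of the subfamily was therefore lower, but to unequal degrees. The value of Jund was 5.29 times that of Jun with RVKM-Ascl2 and 9.85 times with RVKM-Empty, and that of Junb 5.60 and 8.74 times. Jund and Junb lie 14276 kb apart on chromosome 8 and are not neighbours.

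The Fos subfamily, whose proteins bind DNA only as partners of others, was lower in all 3 members measured here, none past 2-fold. Fosb (ENSMUSG00000003545, chromosome 7, 19302696 to 19310118), an immediate early gene known for a stable short form in neurons, was 11.3 with RVKM-Ascl2 and 20.6 with RVKM-Empty, a log2 ratio of −0.81. Fos (ENSMUSG00000021250, chromosome 12, 85473890 to 85477274), the textbook immediate early gene, was 26.3 with RVKM-Ascl2 and 33.8 with RVKM-Empty, a log2 ratio of −0.35. The 2 genes thus differed to unequal degrees, and Fos was 2.32 times Fosb with RVKM-Ascl2 and 1.64 times with RVKM-Empty. Fos stood in nearly the same proportion to Jun in both libraries, 1.15 times its value with RVKM-Ascl2 and 1.18 times with RVKM-Empty. Fosl2 (ENSMUSG00000029135, chromosome 5, 32136472 to 32157840), which encodes Fra-2, was near the floor in both, at 1.13 and 1.83. Its log2 ratio of −0.41 ran from −0.65 with a pseudocount of 0.1 to −0.16 with a pseudocount of 5.

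The Batf subfamily held 1 high gene and 1 of middle level. Batf (ENSMUSG00000034266, chromosome 12, 85686720 to 85709087), which acts with Irf4 in activated B and T cells, was 115 with RVKM-Ascl2 and 179 with RVKM-Empty, a log2 ratio of −0.64. Batf3 (ENSMUSG00000026630, chromosome 1, 191098414 to 191108943), known for its need in a lineage of dendritic cells, was 18.4 with RVKM-Ascl2 and 22.9 with RVKM-Empty, a log2 ratio of −0.30. Batf was 6.24 times Batf3 with RVKM-Ascl2 and 7.82 times with RVKM-Empty.

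Atf3 and Maff had almost the same value in both libraries. Atf3 (ENSMUSG00000026628, chromosome 1, 191170296 to 191183333), a stress-induced factor, was 7.65 with RVKM-Ascl2 and 7.57 with RVKM-Empty, a log2 ratio of 0.01 that turned to −0.01 when the trend with expression level was removed. Maff (ENSMUSG00000042622, chromosome 15, 79346621 to 79359078), a small Maf protein that lacks a transactivation domain, was 3.17 with RVKM-Ascl2 and 3.06 with RVKM-Empty, a log2 ratio of 0.04. Atf3 lies 61.4 kb from Batf3, and Fos 209 kb from Batf. In both pairs the log2 ratios differed, 0.01 against −0.30 and −0.35 against −0.64.

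The order of the members by value was almost the same in both libraries. With RVKM-Ascl2 it ran Junb, Jund, Batf, Fos, Jun, Batf3, Fosb, Atf3, Maff and Fosl2, and with RVKM-Empty only Jund and Junb changed places. Without replicates, no spread is known by which neighbours in this order could be told apart. Jund, Junb and Batf made up 80.1% of the family sum with RVKM-Ascl2 and 85.7% with RVKM-Empty. Batf, the lowest of the 3, lay above 93.4% of the 12283 genes with RVKM-Ascl2 and above 96.2% with RVKM-Empty. The Jun subfamily was 59.9% of the family sum with RVKM-Ascl2 and 67.5% with RVKM-Empty, the Fos subfamily 8.50% and 6.79%, and the Batf subfamily 29.2% and 24.4%.

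Set among all genes, the members whose log2 ratio with a pseudocount of 1 was lower by at least 1.5-fold were Jund, Junb, Fosb and Batf. That fold was passed downward by 4.31% of the 12283 genes. Fosl2 falls short only through the pseudocount, since its plain ratio of RVKM-Empty to RVKM-Ascl2 was 1.62, against 1.56 for Batf. Jund was the 40th lowest of these by log2 ratio, Junb the 103rd, Fosb the 187th and Batf the 394th. Among the 1063 genes that reached 100 in either library, 7 (0.659%) were at least 2-fold lower, and Jund was the third lowest of them. With predicted, unnamed and pseudogene loci left out, the 5 genes closest to Jund in both values were led by Junb (distance in log2(value + 1) over the 2 libraries). The others were Gpx1, a glutathione peroxidase gene, at 151 with RVKM-Ascl2 and 252 with RVKM-Empty, Ndufa6, a subunit gene of respiratory complex I, at 137 and 221, the proteasome subunit gene Psmb2 at 147 and 218, and Tecr, an enzyme of long-chain fatty acid synthesis, at 160.0 and 238.

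**Figure D2:**
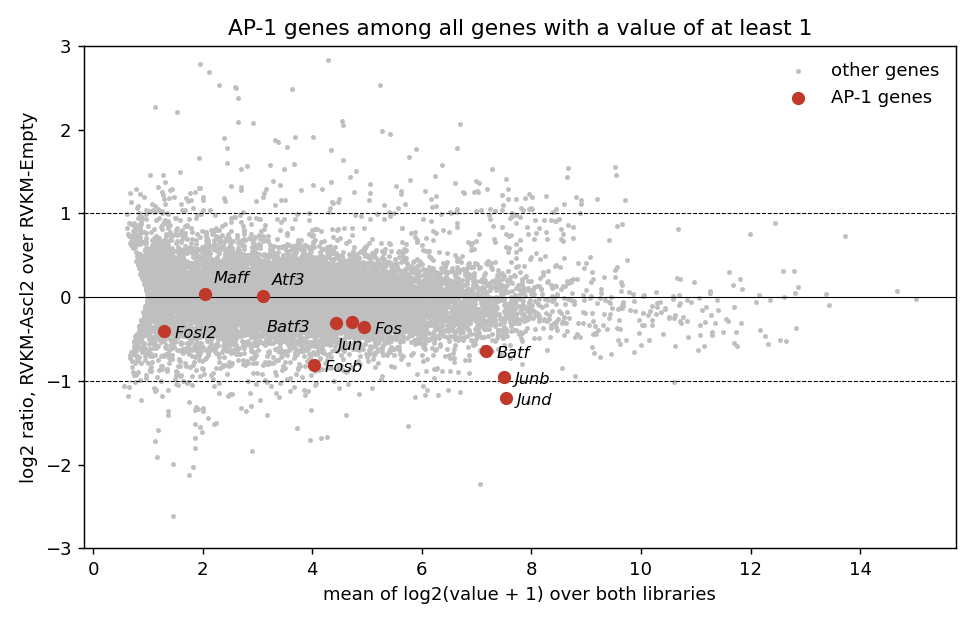
Log2 ratio of RVKM-Ascl2 over RVKM-Empty (vertical axis) against the mean of log2(value + 1) over both libraries (horizontal axis) for 12283 genes in grey, with the 10 AP-1 genes in red. Dashed lines mark 2-fold, and 8 genes lie beyond the axis limits. Jund alone among the members lies below the lower dashed line, with Junb just above it.

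Gene length moved with the ratio. Across 11559 genes with a known genomic span, shorter genes had lower ratios (Spearman rho of 0.19 across genes, which are not independent replicates). Jund, Junb, Jun and Fos span under 5 kb, with spans from 1.84 to 3.39 kb. Leaving out immunoglobulin genes, 1771 genes are that short, and their median log2 ratio was −0.19, with 68.7% below 0. In that group 37 genes were at least 2-fold lower, and 44 lay at or below the ratio of Junb. After subtraction of the running median of the ratio along genomic span, Jund stood at −1.03, Junb at −0.73, Fosb at −0.70 and Batf at −0.60. Fos came to −0.19 and Jun to −0.13. The median of the 10 was then −0.30, and 8 remained below 0, beside 49.7% of all genes with a span.

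**Figure D3:**
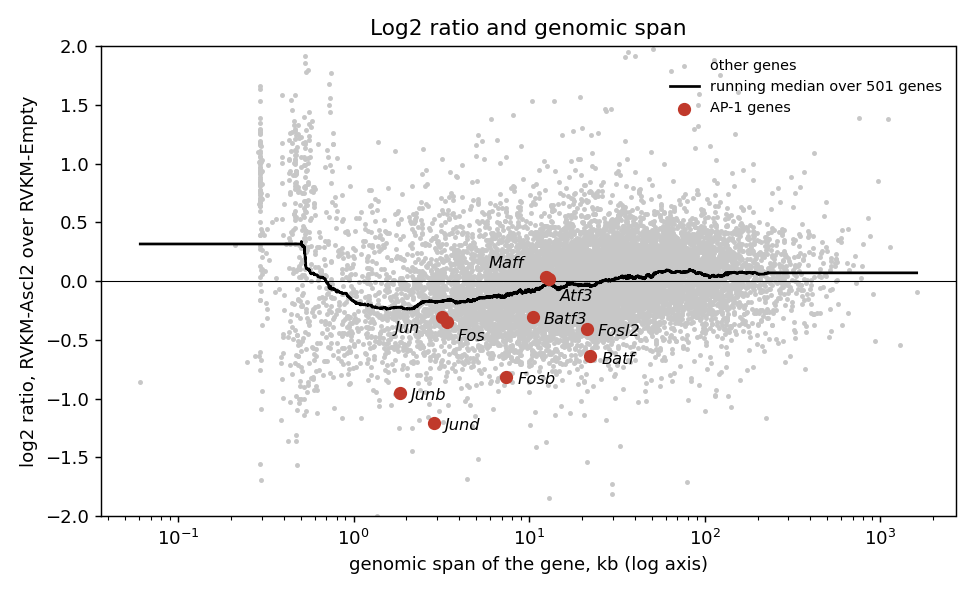
Log2 ratio of RVKM-Ascl2 over RVKM-Empty against the genomic span of each gene in kb (log axis), with the running median along span as a line and the AP-1 genes in red; 25 genes lie beyond the vertical limits. Jund, Junb, Fosb and Batf lie well below the line, and Jun and Fos closer to it.

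Other genes whose proteins enter AP-1 dimers did not share one direction. Of 9 listed, 6 had values, 5 of them at least 1. Of these 5, 3 were below 0 (51.6% over all genes), with a median of −0.16 and none past 2-fold. Atf7, a partner of Jun proteins, was 21.2 with RVKM-Ascl2 and 13.9 with RVKM-Empty (log2 ratio 0.58). The related Atf2 was 18.9 and 16.3. The small Maf genes Mafk and Mafg were 6.54 and 8.67, and 12.3 and 13.9. Jdp2, a repressor that pairs with Jun proteins, was 12.0 and 14.02, and Fosl1, which encodes Fra-1, was 0.432 and 0.723.

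Of 21 other bZIP genes, 7 were below 0 (51.6% over all genes), with a median of 0.07 and none past 2-fold. Bach2, which binds AP-1-like sites as a repressor with small Maf proteins, was 13.0 with RVKM-Ascl2 and 7.06 with RVKM-Empty (log2 ratio 0.80). Creb3l2, a factor of secretory cells, was 4.39 and 2.25, and Ddit3, a stress factor, was 62.7 and 42.01. Cebpb was lower, at 7.27 and 11.7 (−0.62).

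Among 8 genes for factors that bind DNA with AP-1, the median was 0.03, and 1 was past 2-fold in each direction. Across all genes, 1.53% were at least 2-fold higher and 0.716% at least 2-fold lower. Ets1, a factor of lymphocyte development, was 36.2 with RVKM-Ascl2 and 10.04 with RVKM-Empty (log2 ratio 1.75). Runx1, a factor of blood cell development, was 8.75 and 20.9 (−1.16), and the related Runx3 was 43.7 and 54.1. Of the partners of Batf, Irf4 was 108 and 88.3 (0.29), and Irf8, named beside it although its ratio is not among the 4 largest, was 172 and 199 (−0.21).

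Upstream of AP-1, of 25 MAP kinase cascade entries (Map2k7 has 2 identifiers), 13 were below 0 (51.6% over all genes). Their median was −0.01 and none was past 2-fold. The nearest was Hras, a small GTPase, at 8.53 with RVKM-Ascl2 and 16.9 with RVKM-Empty (log2 ratio −0.91). Mapk3, which encodes the kinase ERK1, was 27.3 and 36.2, and the kinase kinase genes Map2k3 and Map2k2 were 13.4 and 17.6, and 41.2 and 53.2. Of 6 genes of serum response factor and its cofactors, which act on the promoters of immediate early genes, 4 were below 0 with a median of −0.12. Srf was 13.0 and 19.7 (−0.56), its coactivator gene Mkl1 was 17.04 and 23.4, and the ternary complex factor genes Elk4 and Elk1 were 42.2 and 32.9, and 5.86 and 6.94.

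Genes that MAP kinases induce as brakes on themselves were below 0 in 8 of 11, beside 51.6% of all genes. Their median was −0.24 and none was past 2-fold. The phosphatase gene Dusp5 was 8.46 with RVKM-Ascl2 and 12.4 with RVKM-Empty (log2 ratio −0.51), and Dusp2 was 42.5 and 55.5. Spry2, an inhibitor of receptor signalling, was 2.18 and 3.32. Dusp16, a phosphatase for JNK, lay above 0 at 5.11 and 3.46.

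Immediate early genes outside the AP-1 family included several with ratios like those of Junb and Fosb. Of 17 with a value of at least 1, 11 were below 0 (51.6% over all genes). Their median was −0.17 and none was past 2-fold. Ier2 was 57.04 with RVKM-Ascl2 and 103 with RVKM-Empty (log2 ratio −0.85). The zinc finger factor genes Klf2, Egr3 and Egr2 were 18.6 and 33.9 (−0.83), 6.12 and 11.3 (−0.79), and 72.4 and 125 (−0.78).

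**Figure D4:**
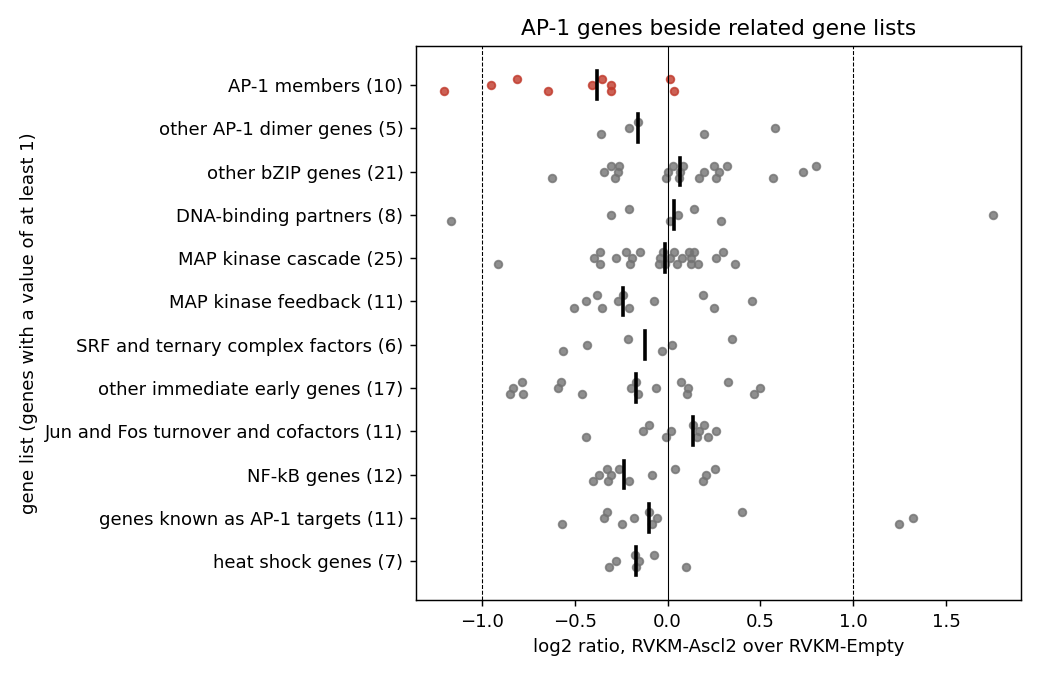
Log2 ratio of RVKM-Ascl2 over RVKM-Empty for the AP-1 genes (red) and 11 related lists (grey), 1 point per gene with a value of at least 1 and a black bar at each list's median; the number of genes is in brackets and dashed lines mark 2-fold. The AP-1 median (−0.38) is the lowest of the 12, in lists chosen with earlier results known.

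Of 11 genes known as AP-1 targets in various cells, 8 were below 0, beside 51.6% of all genes, and the median was −0.10. Of the 11, 2 were at least 2-fold higher, as were 1.53% of all genes. These were Prdm1, the plasma cell regulator, at 9.23 with RVKM-Ascl2 and 3.10 with RVKM-Empty (log2 ratio 1.32), and Il10, which encodes an anti-inflammatory cytokine, at 12.3 and 4.63 (1.24). Cdkn1a, a cell cycle inhibitor gene, was 20.4 and 30.7, and the adhesion receptor gene Cd44 was 133 and 100.4. Genes for the turnover of Jun and Fos proteins and for their cofactors had 4 of 11 below 0, a median of 0.14 and none past 2-fold. Fbxw7, a ubiquitin ligase subunit for Jun, was 42.2 and 35.1, and Rfwd2 (COP1), another, was 15.03 and 12.8. Det1, which works with COP1, was 4.49 and 6.45.

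With the trend along genomic span removed, a check of the related lists added after the data were seen, 49.7% of all genes with a span were below 0. The AP-1 members stayed at 8 of 10. MAP kinase feedback genes stayed at 8 of 11 with a median of −0.13. The other immediate early genes came to 9 of 17 with a median of −0.03. Among them Ier2 stood at −0.62, Klf2 at −0.66, Egr3 at −0.64 and Egr2 at −0.67. The known targets came to 6 of 11 with −0.07. The DNA-binding partners came to 5 of 8 with −0.03, where the median had been above 0. Genes of serum response factor and its cofactors came to 5 of 6 with −0.15, and the MAP kinase cascade to 14 of 24 with −0.03. Other AP-1 dimer genes were 3 of 5 with −0.09, other bZIP genes 7 of 21 with 0.18, and turnover and cofactor genes 5 of 11 with 0.07. The NF-kB and heat shock lists are given below.

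In 9 alternatives Jund lay between −1.21 and −1.03, past 2-fold in each. Junb lay between −0.96 and −0.73, Fosb between −0.86 and −0.65 and Batf between −0.64 and −0.55. Rescaling to equal sums without immunoglobulin genes, Ascl2 and Pcdh15 raises the RVKM-Ascl2 values by 0.09 on the log2 scale. It left 8 members below 0 and brought the median over all genes to 0.07.

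**Figure D5:**
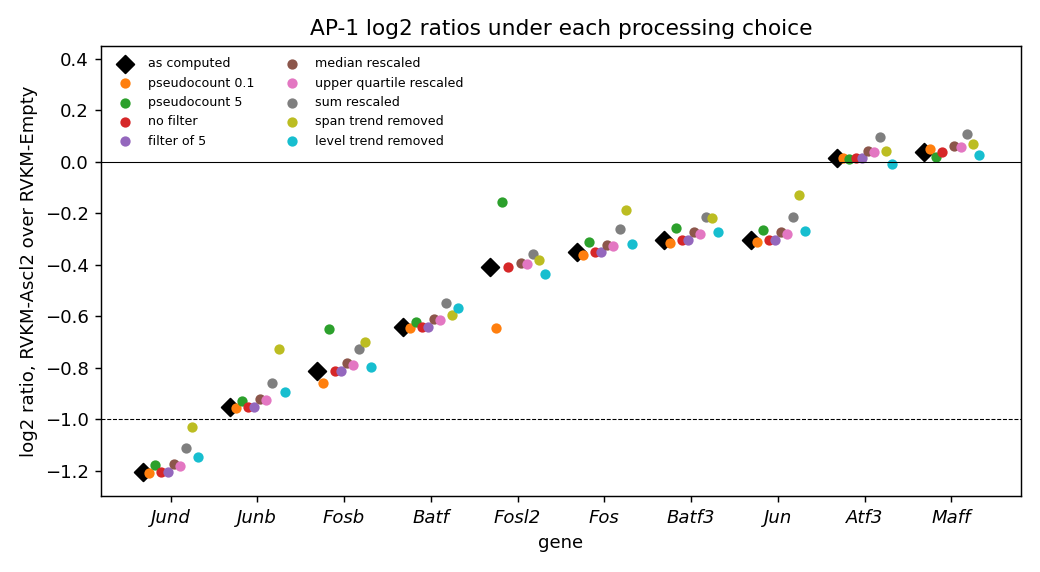
Log2 ratio of RVKM-Ascl2 over RVKM-Empty for each AP-1 gene as computed (black diamonds) and under 9 other processing choices (coloured points); the dashed line marks 2-fold lower. Jund lies below that line under every choice shown, and Fosl2 shows the widest spread. Points for the changed filters equal the diamonds by construction, and Fosl2 and Maff have none for the filter of 5.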

How the data were processed

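Per the labels' protocols, RNA came from a Trizol extraction and a company prepared the libraries. The authors deposited 1 table per library with a signal per gene, read from its values as a depth-scaled abundance, which was not tested; the sources used here do not give its unit name, quantifier or annotation. The submitters' processing notes name mm10 as the build and list Bowtie2, MACS2, Picard and Trim Galore without their roles. Of 13792 identifiers, 13752 had a symbol in the reference table. Groups came from the sample titles.

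Log2 ratios used a pseudocount of 1, which understates differences of low genes. The 12283 genes that reached a value of 1 in either library were kept, and 2-fold means a log2 ratio of 1 or more in size. No p-value was computed, since each group has 1 library. Members and lists were chosen with earlier results of these data known. Of the other lists, genes named were all measured AP-1 dimer genes, up to 4 with the largest ratios per list and any past 2-fold; some genes are not reported here. Genomic spans came from RefSeq on GRCm38.p6 and were matched by symbol. Alternatives were pseudocounts of 0.1 and 5, a filter of 5 or none, 3 rescalings, removal of trends with span and with level, other fold thresholds, the mean in place of the median, and other sums. The steps were tested on simulated data. Python 3.11.15, pandas 2.3.3, numpy 2.4.6 and scipy 1.17.1 were used.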

Additional observations from a re-analysis of the deposited data

How the results depend on the processing

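The number of AP-1 genes below 0 stayed at 8 of 10 in every alternative but 2. It was 7 of 8 with a filter of 5, which leaves out Fosl2 and Maff. With the trend with level removed it was 9 of 10, where Atf3 came to −0.01. Over all genes, 51.6% were below 0 as computed and 49.7% with the span trend removed. That share was not computed for the other alternatives. The median over all genes ran from −0.03 with the filter of 5 to 0.07 with the sum rescaled. The members' median of −0.38 was −0.50 with a pseudocount of 0.1, −0.29 with 5 and −0.50 with a filter of 5. It was −0.36 with the median rescaled, −0.36 with the upper quartile rescaled and −0.31 with the sum rescaled. With the span trend removed it was −0.30, and as a mean −0.49. The family's share of the RVKM-Ascl2 library was 0.540 times that of the RVKM-Empty library, 0.679 times without Jund and Junb, and 0.586 times in sums without immunoglobulin genes, Ascl2 and Pcdh15. Jund alone was past 2-fold, 4 members were past 1.5-fold and 0 past 3-fold. Over all genes 276 were past 2-fold (88 lower, 188 higher), 1145 past 1.5-fold and 56 past 3-fold. With a pseudocount of 0.1 there were 590 past 2-fold (220 lower, 370 higher) and with 5 there were 123 (20 lower, 103 higher), since a pseudocount damps low genes. Depth is unknown, so the precision of low values such as that of Fosl2 cannot be stated. No paired analysis was possible because there was 1 library per group.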

Other observations

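Genes of the NF-kB pathway, which like AP-1 responds to the antigen receptor and CD40, were below 0 in 8 of 12, with a median log2 ratio of −0.23 and none past 2-fold, where 51.6% of all genes were below 0. With the trend along genomic span removed, 7 of 12 were below 0 with a median of −0.20, beside 49.7% of all genes with a span. Nfkbid, a nuclear regulator, was 6.51 with RVKM-Ascl2 and 8.90 with RVKM-Empty. Bcl3, another, was 35.3 and 45.9. The inhibitor gene Nfkbib was 35.4 and 44.7, and Relb, a subunit of the alternative pathway, was 23.6 and 29.7.

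Heat shock genes, which can respond to handling of cells, were below 0 in 6 of 7, with a median of −0.17 and none past 2-fold, where 51.6% of all genes were below 0. With the trend along genomic span removed, 4 of 7 were below 0 with a median of −0.04, and Hspa8 turned to 0.02, so the direction of this list depends on that trend. The mitochondrial chaperonin gene Hspe1 was 439.7 with RVKM-Ascl2 and 547 with RVKM-Empty. Dnajb1 was 13.4 and 16.5, Hsp90aa1 was 210.1 and 237, and Hspa8 was 1081 and 1217. Whether handling differed between the cultures was not tested.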
